A study of Mus musculus with 2 samples.

Results

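Leukocyte integrins and their adhesion ligands were examined through 10 transcripts, which were Itgal, Itgam, Itgax, Itgb2, Itga4, Itgb1, Itgb7, Itgb5, Icam1, and Vcam1. They were taken by name from the 20299 genes of the deposited count table, and all 10 were found there. Their unique molecular identifiers (UMIs) were summed in each of the 16 deposited cell clusters of each genotype. The cells came from kidneys of 8-week-old C57BL/6 mice with nephrotoxic serum nephritis (NTN), a model of immune complex–mediated glomerular injury. WT mice and Vsir-/- mice, which lack VISTA through a germline knockout, both received 200 μg of sheep IgG with Freund's complete adjuvant and sheep nephrotoxic serum 4 days later (2 μL per g of body weight according to the sample labels, whereas the study's methods give a larger dose). Cells were freed by liberase digestion (0.2 mg/mL, 37°C, 30 minutes) and profiled with a droplet-based 3′ assay in 1 library per genotype. The labels call the WT library CD45+ sorted cells and the Vsir-/- library all kinds of kidney cells, whereas the study's methods describe a CD45+ sort, and the number of mice per library was not given in the sources used here.

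Integrins are heterodimers of an α and a β subunit that hold leukocytes to the vessel wall, to other cells, and to matrix. Itgb2 encodes the β2 subunit (CD18), which pairs with the products of Itgal (LFA-1), Itgam (Mac-1 or CD11b), and Itgax (CD11c), and intercellular adhesion molecules such as ICAM-1 are their ligands. Itga4 encodes α4, which pairs with β1 or β7 and binds VCAM-1, fibronectin, and, as α4β7, the mucosal addressin. Chemokine and antigen receptor signals switch integrins from a bent, low-affinity form to an extended, high-affinity form, so transcript levels do not report on binding.

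The WT library held 5470 cells and 32799550 UMIs, and the Vsir-/- library held 1844 cells and 18601189 UMIs, with a median of 4726.5 and 6673 UMIs per cell. Vsir itself had 4278 UMIs in WT mice and 8 UMIs in Vsir-/- mice. Ptprc, which encodes CD45, had a UMI in 94.2% of cells in WT and 73.6% in Vsir-/- mice. Transcripts of 36 tubule genes summed to 494 counts per 1e+06 UMIs (CPM) in WT and 11003 CPM in Vsir-/- mice, and those of 10 endothelial genes to at most 159 CPM in any WT cluster and 2444 CPM in the Vsir-/- library. In the deposited names, R1 stands for resident and R2 for infiltrating macrophages, and EM for effector memory. A T cell receptor or CD3 transcript was found in 33.5% of the Vsir-/- cells named non–EM-like CD4+ T cells, against 100% in WT mice. That name thus went against the markers in the Vsir-/- library. In proliferating cells, whose name gives no lineage, the shares were 34.9% in Vsir-/- and 96.6% in WT mice. Both clusters are called mixed below. The EM-like CD4+ cluster held cells with Cd8a or Cd8b1 and no Cd4 in both libraries, so its name did not hold for all of its cells. The cluster named pDC (plasmacytoid dendritic cells) also carried transcripts of 6 conventional dendritic cell genes, at 638 CPM in WT and 816 CPM in Vsir-/- mice. WT macrophages and neutrophils in turn held lymphocyte transcripts more often, with a T cell transcript in 31.9% of WT and 5.49% of Vsir-/- R1 macrophages. The libraries shared 5 cell barcodes.

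Because each genotype had 1 library, no test between genotypes was possible. Values are CPM of summed UMIs with exact Poisson 95% intervals, and ratios carry exact conditional 95% intervals. Both describe counting error and leave out the spread from cell to cell and from mouse to mouse. Overlapping level intervals do not mean that the interval of the ratio includes 1. A pair of gene and cluster was compared when the cluster had at least 20 cells in each library, which 13 clusters had, and the gene at least 20 UMIs over both libraries. A difference of at least 2-fold is used below as a rule of size and carries no error between mice. The clusters were built by the authors from expression of the same cells, so levels across clusters are descriptions.

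**Figure D1:**
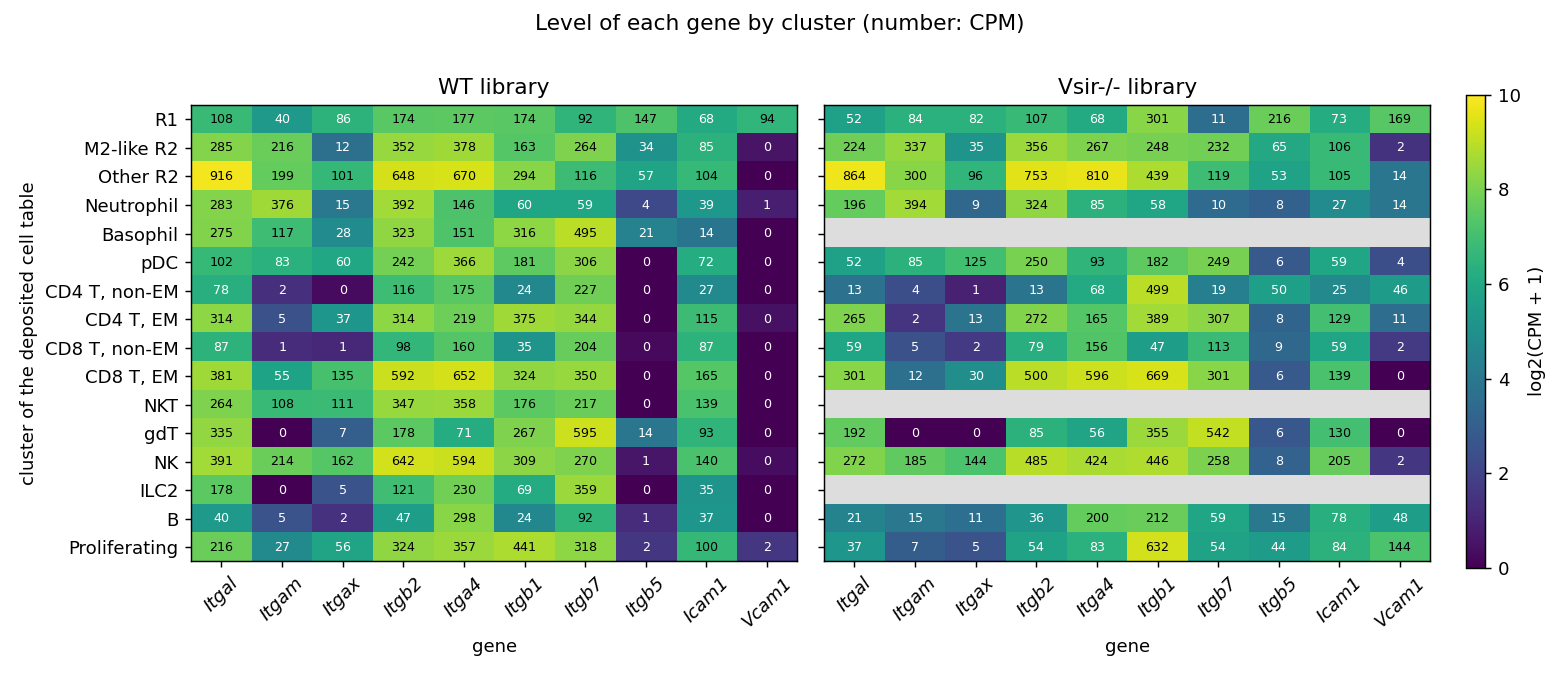
Levels of the 10 genes (columns) in the 16 clusters (rows) of the WT library (left) and the Vsir-/- library (right); color is log2(CPM + 1), the number in each cell is CPM, and gray rows had under 20 cells. Itgal, Itgb2, and Itga4 are high in Other R2 macrophages, NK cells, and EM-like CD8+ T cells of both libraries, whereas Itgb5 and Vcam1 are high in R1 macrophages.

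Itgal and Itgb2, the subunits of LFA-1, were highest in Other R2 macrophages, a subset of infiltrating macrophages. Itgal had 916 CPM there in WT mice (interval 864 to 970) and 864 CPM in Vsir-/- mice (interval 800 to 933). NK cells (391 CPM) and the EM-like CD8+ cluster (381 CPM) came next in WT mice and did not differ beyond counting error. B cells were last with 40.2 CPM in WT mice. The same clusters followed in Vsir-/- mice, with 272 CPM in NK cells and 301 CPM in the EM-like CD8+ cluster. Itgb2 followed nearly the same order in WT mice, with 648 CPM in Other R2 macrophages (interval 605 to 694), 642 CPM in NK cells (interval 617 to 668), and 592 CPM in the EM-like CD8+ cluster (interval 540 to 647), which overlapped. In Vsir-/- mice, Other R2 macrophages stood alone at 753 CPM (interval 693 to 817), above NK cells at 485 CPM and the EM-like CD8+ cluster at 499.9 CPM. The 2 subunits were also alike across all 29 profiles of a cluster in a library with at least 20 cells. Itgb2 was the gene most like Itgal of the 8418 genes with a mean of at least 10 CPM (Pearson r of 0.90 for log2(CPM + 1)), followed by Diaph1 (0.89) and Lrrfip1 (0.89). Itgb2 was most like Capza1 (0.92) and Capzb (0.90), which cap actin filaments. Profiles of 1 library share its depth and background, and these correlations are descriptions.

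**Figure D2:**
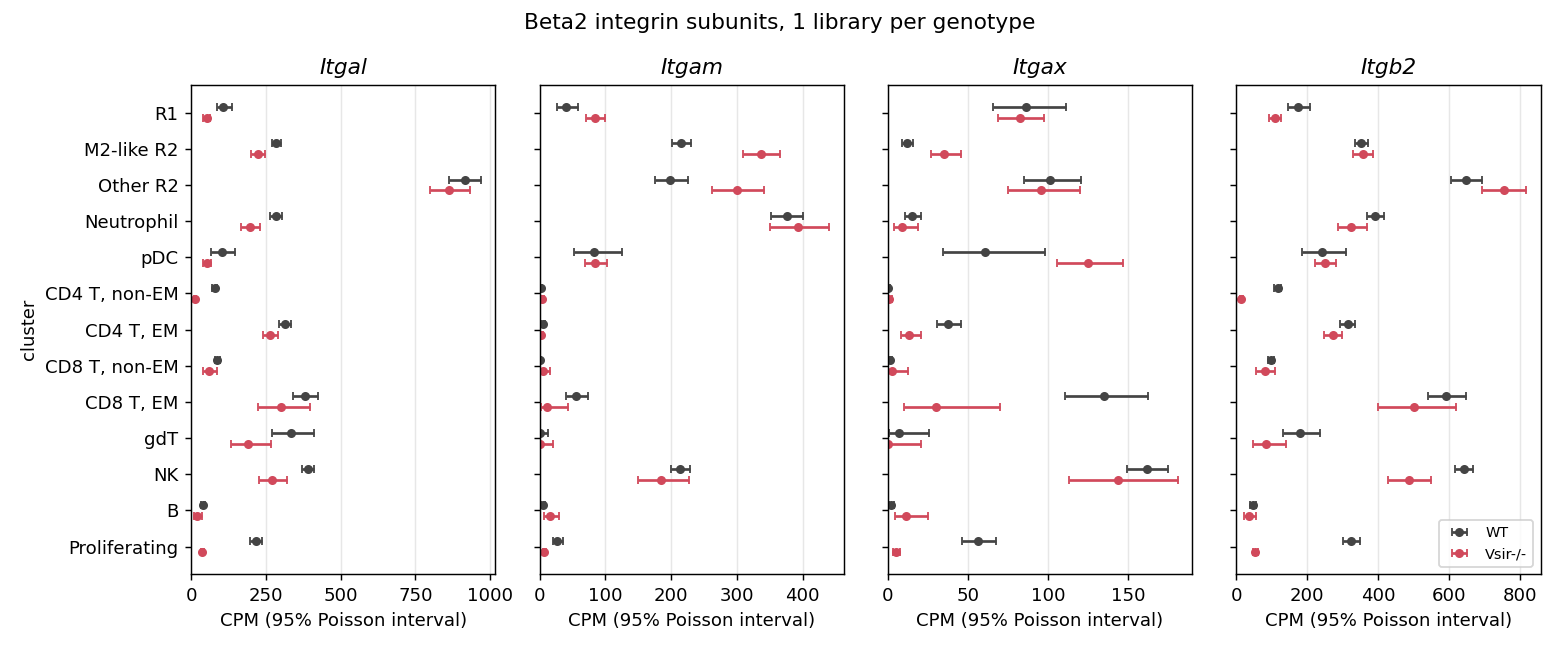
CPM of the genes of the β2 integrins (panels) in the 13 clusters compared, in WT mice (gray) and Vsir-/- mice (red); points are CPM of summed UMIs with 95% Poisson intervals, from 1 library per genotype. The red points for Itgal lie left of the gray ones in every cluster shown, by little in Other R2 macrophages, and those for Itgam lie to the right in R1, M2-like R2, and Other R2 macrophages.

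Between genotypes, Itgal was lower in Vsir-/- mice in all 13 clusters compared, with log2 ratios from -2.62 to -0.08, and the sign was the same in each pair that could be compared under every other setting tried. In Other R2 macrophages the ratio was 0.944 and its interval included 1 (0.857 to 1.04). The interval also included 1 in non–EM-like CD8+ T cells (0.678, interval 0.438 to 1.01) and in EM-like CD8+ T cells (0.790, interval 0.574 to 1.07). In NK cells Itgal had 391 and 272 CPM (ratio of 0.696, interval 0.580 to 0.829), and in neutrophils 283 and 196 CPM (ratio of 0.690, interval 0.575 to 0.824). A 2-fold difference was reached in R1 macrophages, with 108 CPM in WT and 51.8 CPM in Vsir-/- mice, and in both mixed clusters. Without the cell with the most UMIs in each library, the log2 ratio of Itgal in R1 macrophages was -0.98 rather than -1.06, under 2-fold. The mean over cells gave -0.97 and thinning to 1000 UMIs per cell gave -1.91. Itgb2 was lower in 10 of the 13 clusters. The exceptions were the M2-like R2 macrophages (352 and 356 CPM), the Other R2 macrophages (648 and 753 CPM), and the pDC cluster (242 and 250 CPM). In γδ T cells, Itgb2 had 50 UMIs in WT mice and 15 UMIs in Vsir-/- mice, which was 2.11-fold lower (interval 1.16 to 4.04). That log2 ratio of Itgb2 was -1.04, and it lay under 2-fold with at most 5% mitochondrial counts (-0.93), with Ptprc-positive cells (-0.99), and with the mean over cells (-0.97).

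Itgam, which encodes CD11b of the phagocyte complement receptor, was highest in neutrophils of both genotypes, with 376 CPM in WT mice (interval 353 to 401) and 394 CPM in Vsir-/- mice (interval 351 to 441). The ratio of 1.05 had an interval that included 1 (0.916 to 1.19). M2-like R2 macrophages followed with 216 CPM in WT and 337 CPM in Vsir-/- mice, a 1.56-fold difference (interval 1.41 to 1.74). Other R2 macrophages had 199 and 300 CPM, which was 1.51-fold (interval 1.26 to 1.81), and R1 macrophages had 40.3 and 83.7 CPM, which was 2.08-fold (interval 1.37 to 3.24). Thus all 3 macrophage clusters had more Itgam in the Vsir-/- library, and R1 macrophages had less of it than either R2 cluster in each library. The R1 value rested on 28 WT UMIs; the mean over cells of their own CPM gave a log2 ratio of 0.39, and thinning every cell to 1000 UMIs gave 0.08. NK cells had 214 and 185 CPM, and their interval of the ratio included 1 (0.692 to 1.07). Among T cells, the EM-like CD8+ cluster had 45 Itgam UMIs (54.7 CPM) in WT and 2 UMIs in Vsir-/- mice, a CPM ratio of 0.220 (interval 0.0259 to 0.844). Non–EM-like CD8+ T cells had 7 and 2 UMIs, and γδ T cells had 0 in both, which allowed up to 10.7 CPM in WT and 16.9 CPM in Vsir-/- mice. Itgam was most like Tyrobp (r of 0.93), Plek (0.89), and Fcer1g (0.89), and Tyrobp and Fcer1g encode signaling adaptors of myeloid and NK cell receptors.

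Itgax encodes CD11c, often used as a dendritic cell marker. In WT mice, however, NK cells led with 162 CPM (interval 149 to 175) and held 46.6% of all Itgax UMIs (interval 43.9 to 49.3), followed by the EM-like CD8+ cluster with 135 CPM (interval 111 to 162). In Vsir-/- mice NK cells had 144 CPM (interval 113 to 181) and the pDC cluster 125 CPM (interval 106 to 147), and the pDC cluster held the most UMIs with 26.8% (interval 23.2 to 30.7). The EM-like CD8+ cluster held only 5 Itgax UMIs (30.1 CPM) in its 28 Vsir-/- cells, compared with 111 UMIs in WT mice, a 4.48-fold lower level (interval 1.86 to 14.1). Thinning to 1000 UMIs per cell moved this log2 ratio of Itgax from -2.03 to -0.01. The EM-like CD4+ cluster, which also held cells with Cd8 transcripts and no Cd4, had 37.5 and 13.3 CPM. This was 2.81-fold lower (interval 1.75 to 4.74), and the part of those cells in it was not tested. In the EM-like CD4+ cluster the log2 ratio was -1.47, and -1.49 after thinning, while the level of Itgax in R1 macrophages (86.3 and 82.4 CPM) and Other R2 macrophages (101 and 95.8 CPM) had ratio intervals that included 1. In M2-like R2 macrophages Itgax had 12.1 CPM in WT and 35.2 CPM in Vsir-/- mice (2.92-fold, interval 1.98 to 4.31), but 1 Vsir-/- cell held 18 of the 59 UMIs, and the mean over cells of their CPM turned the log2 ratio from 1.54 to -0.13. Across the profiles, Itgax was most like Efhd2 (r of 0.92), Cx3cr1 (0.86), and Fcer1g (0.85).

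Within the pDC cluster of Vsir-/- mice, subsets chosen after the values were seen differed in their integrins, as a description. The 26 cells with Xcr1 or Clec9a, markers of cross-presenting dendritic cells, and no Siglech had 102 CPM of Itgae, 67.4 CPM of Itgax, and 28.6 CPM of Itgam. The 27 cells with Cd209a and none of those markers had 0 UMIs of Itgae, 200 CPM of Itgax, and 215 CPM of Itgam. Itgal was at 87.8 CPM in the former and 5.90 CPM in the latter. In the WT library these subsets had 1 and 7 of the 21 cells of the cluster, beside 26 and 27 of 86 cells in Vsir-/- mice. The genotypes thus could not be compared within them, and the mix of cells in the cluster differed between the libraries. The part of this mix in the differences of the whole cluster was not tested.

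Itgam and Itgax are neighbors on mouse chromosome 7 whose annotated starts lie 66910 bases apart, and their levels had an r of 0.71 over the 29 profiles. Their upstream sequences are shown because the profiles differ in neutrophils, which led for Itgam and had at most 14.9 CPM of Itgax. The 250 bases before each annotated start were taken from RefSeq (GRCm38.p6, plus strand), at chr7:128062390-128062639 for Itgam and chr7:128129300-128129549 for Itgax. Capitals mark GAGGAA or its reverse complement TTCCTC, the core of sites of the myeloid factor PU.1, searched on both strands; such a core stood in 23.3% of the 32851 promoter windows of the table. Itgam held it 84 and 15 bases before the start, and these letters were not in the Itgax window. Of the 7 genes of the set with a window, Itgb1 also held it, 9 bases before its start. Itgb1 had 59.7 CPM in WT and 57.9 CPM in Vsir-/- neutrophils. Any part of these letters in the levels was not tested.
Itgam: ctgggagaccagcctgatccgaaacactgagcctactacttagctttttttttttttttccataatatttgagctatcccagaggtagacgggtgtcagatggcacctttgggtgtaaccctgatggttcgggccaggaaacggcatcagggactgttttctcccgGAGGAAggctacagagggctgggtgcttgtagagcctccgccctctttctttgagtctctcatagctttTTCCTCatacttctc
Itgax: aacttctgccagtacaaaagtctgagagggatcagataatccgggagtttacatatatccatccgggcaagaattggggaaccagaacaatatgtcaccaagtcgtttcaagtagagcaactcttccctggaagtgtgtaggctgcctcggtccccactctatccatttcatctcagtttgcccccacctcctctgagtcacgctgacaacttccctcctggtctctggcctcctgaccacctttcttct

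Both subunits of an integrin were next sought in the same cell. Itgal and Itgb2 were found together in 83.0% of WT and 87.0% of Vsir-/- Other R2 macrophages, in 78.1% and 85.1% of NK cells, and in 2.48% and 4.55% of B cells. Itgam and Itgb2 were found together in 51.3% of WT and 57.6% of Vsir-/- neutrophils and in 59.9% and 66.7% of M2-like R2 macrophages. The shares depend on depth, and with 1000 UMIs per cell those of Other R2 macrophages for LFA-1 were 32.8% in WT and 25.2% in Vsir-/- mice. Thinning turned the direction of the difference between genotypes in 39 of the 130 shares of cells with a UMI of 1 gene, so no order between genotypes is read from these shares. Cells with 1000 UMIs or more numbered 5303 in WT and 1766 in Vsir-/- mice.

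**Figure D3:**
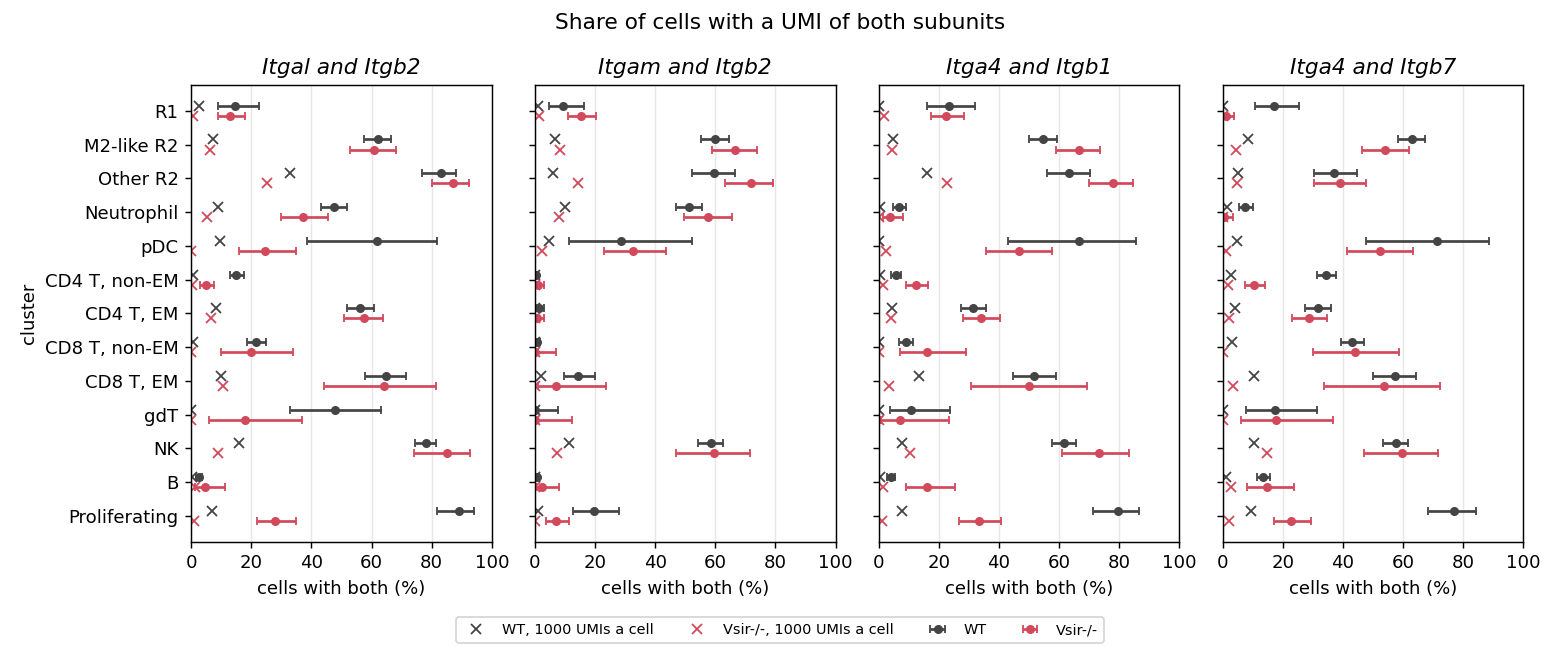
Percentage of cells with at least 1 UMI of both subunits of LFA-1, Mac-1, α4β1, and α4β7 (panels) in the 13 clusters, in WT mice (gray) and Vsir-/- mice (red); points with 95% Clopper-Pearson intervals are at full depth, and crosses are after thinning to 1000 UMIs per cell. Other R2 macrophages and NK cells stand high for LFA-1, and Mac-1 pairs lie near 0 in T and B cells apart from EM-like CD8+ T cells.

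Itga4, the α4 subunit shared by VLA-4 and α4β7, was high in Other R2 macrophages (670 CPM in WT and 810 CPM in Vsir-/- mice), EM-like CD8+ T cells (652 and 596 CPM), and NK cells (594 and 424 CPM). In WT mice the first 2 of these did not differ beyond counting error. It was lower in Vsir-/- mice in 12 of 13 clusters, and Other R2 macrophages were the exception, with a log2 ratio of 0.27. With cells poor in endothelial and tubule transcripts, the sign turned in B cells (from -0.57 to 0.16) and in non–EM-like CD8+ T cells (from -0.03 to 0.15). It also turned in the mixed non–EM-like CD4+ cluster, from -1.36 to 0.38. M2-like R2 macrophages had 378 CPM in WT (interval 360 to 397) and 267 CPM in Vsir-/- mice (interval 243 to 293). A T cell transcript was found in 49.8% of these WT and 8.33% of these Vsir-/- macrophages, and its part in the difference was not tested. B cells had 298 and 200 CPM of Itga4. Differences of at least 2-fold outside the mixed clusters were found in R1 macrophages, where 177 CPM faced 68.1 CPM (2.60-fold lower, interval 1.99 to 3.40), and in the pDC cluster, where 366 CPM faced 93.0 CPM (3.94-fold lower, interval 2.97 to 5.23). The latter compared 21 WT cells with 86 Vsir-/- cells, of which 42.9% and 5.81% held a T cell transcript, and the part of these transcripts was not tested. The mix of dendritic cell subsets in that cluster also differed between the libraries, as given above, and its part was not tested either. Of the 123 UMIs in WT R1 macrophages, 33 lay in 1 cell, and without the cell with the most UMIs in each library the log2 ratio went from -1.38 to -1.08. The levels of Itga4 were most like those of S1pr5 (r of 0.84), Ccdc71l (0.79), and Dusp2 (0.79).

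Within the EM-like CD4+ cluster, subsets chosen after the values were seen differed between genotypes in opposite directions. Cells with Cd4 and neither Cd8a nor Cd8b1 had 302 CPM of Itga4 in 92 WT cells and 131 CPM in 76 Vsir-/- cells, whereas cells of that cluster with Cd8a or Cd8b1 and no Cd4 had 239 CPM in 93 WT cells and 421 CPM in 40 Vsir-/- cells. Itgb7 in the Cd4 subset was at 481 and 353 CPM. The difference between the subsets was not tested.

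Itgb1, whose β1 product pairs with many α subunits for fibronectin, laminin, and collagen, was higher in Vsir-/- mice in 11 of 13 clusters. The other clusters were neutrophils and the pDC cluster, with log2 ratios of -0.03 and -0.01 that turned to 0.02 and 0.06 when centered on all genes, and without cells holding a T cell transcript the value in neutrophils was 0.96. In WT mice Itgb1 was highest in proliferating cells (441 CPM) and the EM-like CD4+ cluster (375 CPM). It was low in B cells (24.4 CPM) and non–EM-like CD4+ T cells (24.2 CPM). M2-like R2 macrophages had 163 CPM in WT and 248 CPM in Vsir-/- mice (1.52-fold, interval 1.35 to 1.72), Other R2 macrophages 294 and 439 CPM (1.49-fold, interval 1.28 to 1.73), and NK cells 309 and 446 CPM (1.44-fold, interval 1.25 to 1.66). The EM-like CD4+ cluster had 375 and 389 CPM, with an interval of the ratio that included 1 (0.936 to 1.14). The R2 macrophage and NK cell values were thus higher by 1.44-fold to 1.52-fold. In EM-like CD8+ T cells, Itgb1 had 324 CPM in WT and 669 CPM in the 28 Vsir-/- cells (2.06-fold, interval 1.64 to 2.58), and the log2 ratio was 1.05, 0.90 without the cells with the most UMIs, 0.93 with the mean over cells, and 0.26 after thinning. B cells had 24.4 and 212 CPM (8.67-fold, interval 6.48 to 11.6). In Vsir-/- B cells, the tubule list stood at 10234 CPM and the endothelial list at 1811 CPM, against 55.1 and 147 CPM in WT B cells; with only cells that had at most 0.5% of their UMIs from these lists (Lcn2 and Spp1 left out), the log2 ratio of Itgb1 was 2.59, compared with 3.11. The same restriction left 0.56 in M2-like R2 and 0.58 in Other R2 macrophages and 0.50 in NK cells. Itgb1 was most like Ap2s1 (r of 0.85), Mlf2 (0.84), and Tbcb (0.83).

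Itgb7, whose product joins α4 or αE for gut and epithelial homing, was highest in γδ T cells, with 595 CPM in WT (interval 508 to 692) and 542 CPM in Vsir-/- mice (interval 439 to 661). WT basophils had 495 CPM (interval 387 to 623) and did not differ from γδ T cells beyond counting error. Itgb7 was lower in Vsir-/- mice in 12 of 13 clusters, although NK cells turned from -0.06 to 0.31 with the mean over cells and B cells from -0.61 to 0.10 with endothelial-poor and tubule-poor cells. Many gaps were small, such as 344 and 307 CPM for the EM-like CD4+ cluster, 270 and 258 CPM for NK cells, and 116 and 119 CPM for Other R2 macrophages. Larger differences stood in R1 macrophages, with 92.1 CPM in WT and 11.2 CPM in Vsir-/- mice (ratio of 0.122, interval 0.0681 to 0.209), and in neutrophils, with 58.8 and 10.3 CPM (5.72-fold lower, interval 2.83 to 13.5). In neutrophils, T cell transcripts moved with it: in WT cells with such a transcript Itgb7 was at 108 CPM and in those without at 24.0 CPM, against 8.21 CPM in Vsir-/- neutrophils without one. In neutrophils with no T or NK cell transcript and at most 2 B cell list UMIs, Itgb7 was at 22.4 CPM in WT mice (interval 14.2 to 33.6). It was still lower in Vsir-/- mice, at 7.76 CPM (interval 2.52 to 18.1), with level intervals that overlapped. The part of lymphocyte transcripts in the difference was not tested. Itgb7 was most like Pkp3 (r of 0.86), Fcho1 (0.86), and Tmsb10 (0.85), and over the 16 WT profiles these were 0.86, 0.51, and 0.58.

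Itgae, the αE partner of β7 that binds E-cadherin, was seen with Itgb7 in 30.4% of WT and 35.7% of Vsir-/- γδ T cells and in 13.8% and 4.00% of non–EM-like CD8+ T cells. In the latter, Itgae had 164 UMIs (32.4 CPM) in WT and 4 UMIs (9.05 CPM) in Vsir-/- mice, a 3.58-fold lower level (interval 1.37 to 13.3). α4 and β7 transcripts were found in the same cell in 62.9% of WT and 54.2% of Vsir-/- M2-like R2 macrophages, and in 57.6% and 59.7% of NK cells. In R1 macrophages these shares were 17.2% and 1.27%.

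Itgb5 encodes β5, which pairs with αv for vitronectin and for the uptake of apoptotic cells. In the WT library it was largely a macrophage transcript. R1 macrophages led with 147 CPM in WT (interval 120 to 178) and 216 CPM in Vsir-/- mice (interval 194 to 240), followed in WT mice by Other R2 macrophages (57.0 CPM) and M2-like R2 macrophages (33.7 CPM). These clusters held 102, 73, and 148 of the 351 Itgb5 UMIs of the WT library. In the Vsir-/- library, the non–EM-like CD4+ cluster (49.6 CPM) and proliferating cells (43.9 CPM) lay near Other R2 macrophages (53.1 CPM). The WT clusters of EM-like and non–EM-like CD4+ T cells and EM-like CD8+ T cells had 0 UMIs, which in non–EM-like CD4+ T cells allowed up to 0.673 CPM (3 counts). In M2-like R2 macrophages, Itgb5 was at 65.1 CPM in Vsir-/- mice, a log2 ratio of 0.95, which was 1.32 with the mean over cells and 1.36 after thinning. Its partner Itgav was in R1 macrophages at 89.2 CPM in WT and 59.3 CPM in Vsir-/- mice, and both transcripts were found in 23.3% and 22.4% of R1 cells. Itgb5 was most like Cd36 (r of 0.87), which encodes a scavenger receptor, Myof (0.85), and Pla2g4a (0.84).

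Icam1, the ligand of LFA-1 and Mac-1 and itself induced by inflammatory cytokines, lay close to the same level in both libraries in most clusters. Of 13 clusters, 7 had a log2 ratio above 0 and 6 below, with several signs that turned between settings, and B cells alone reached 2-fold (37.3 and 78.2 CPM, 2.09-fold, interval 1.44 to 2.99). WT and Vsir-/- levels were 165 and 139 CPM in the EM-like CD8+ cluster, 140 and 205 CPM in NK cells, and 104 and 105 CPM in Other R2 macrophages. In NK cells this was 1.47-fold (interval 1.18 to 1.82), but 1 Vsir-/- cell held 21 of the 104 UMIs. Without the NK cell with the most UMIs in each library it was 1.22-fold, with an interval that included 1 (0.957 to 1.54). R1 macrophages (67.6 and 73.1 CPM) and M2-like R2 macrophages (85.1 and 106 CPM) were above neutrophils, which had 39.1 and 27.0 CPM. With only B cells that had a Ptprc UMI, the log2 ratio in B cells was 0.69 rather than 1.08, and without the cell with the most UMIs in each library it was 0.76. Icam1 was most like Abracl (r of 0.81), Ube2g2 (0.79), and Ifngr1 (0.79), a subunit of the IFN-γ receptor. The upstream 250 bases of Icam1 (RefSeq, GRCm38.p6, chr9:21015690-21015939, plus strand) are shown because Icam1 is known as a target of NF-κB; capitals mark GGAAATTCC, the reverse complement of GGAATTTCC, which was searched on both strands and stood in 0.286% of the 32851 windows. It began 153 bases before the start, and of the 7 genes of the 10 with a window in the table, Icam1 alone held it. Itgal, Itgb2, and Vcam1 were not among them.
Icam1: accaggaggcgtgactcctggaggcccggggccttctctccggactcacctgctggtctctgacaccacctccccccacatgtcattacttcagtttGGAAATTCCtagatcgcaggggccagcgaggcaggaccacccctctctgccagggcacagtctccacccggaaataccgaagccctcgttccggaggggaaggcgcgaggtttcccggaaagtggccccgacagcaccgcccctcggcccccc

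Vcam1, the ligand of α4β1, was an R1 transcript among WT leukocytes. R1 macrophages had 65 UMIs there (93.5 CPM, interval 72.2 to 119), which was 86.7% of the 75 UMIs of the WT library, and no other WT cluster had more than 4 UMIs. In Vsir-/- mice, R1 macrophages had 270 UMIs (169 CPM, interval 149 to 190), a 1.80-fold difference (interval 1.37 to 2.40). In WT R1 macrophages 1 cell held 20 of the UMIs and in Vsir-/- R1 macrophages 1 cell held 59; without these, the ratio was 2.02 (interval 1.46 to 2.86), whereas the mean over cells gave a log2 ratio of 0.43 and thinning 0.07 in place of 0.84. Outside R1 macrophages, Vcam1 appeared in the Vsir-/- library in proliferating cells (144 CPM, with 245 of 642 UMIs in 1 cell) and B cells (47.7 CPM). It also appeared in the mixed non–EM-like CD4+ cluster (45.7 CPM). A Ptprc UMI was found in 30.4% of the Vsir-/- cells of that cluster, and its tubule list stood at 24470 CPM. Against the WT limit of 3 counts, that cluster was at least 67.8-fold higher and B cells at least 55.3-fold higher. The exact lower limits of these ratios, which take in the counting error of both libraries, were 54.7 and 41.7, and the latter was 26.1 without the B cell that held 9 of the 25 UMIs. The gene most like Vcam1 was Itga9 (r of 0.95, and 0.97 over the 16 WT profiles), which encodes the α9 subunit of an integrin that also binds VCAM-1, followed by Gm4951 (0.87) and Nes (0.87).

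R1 macrophages had 4 genes of the set past 2-fold and were read in subsets chosen after the values were seen. Itgal, Itga4, and Itgb7 were at least 2-fold lower and Itgam at least 2-fold higher in Vsir-/- mice. Of all genes compared in R1 macrophages, 8.78% were at least 2-fold lower and 13.6% higher, beside 3 of 10 and 1 of 10 genes of the set. With the mean over cells, 0 of 10 were higher and 1 was lower, where 16.1% and 13% of all genes were. After thinning, 0 of 9 were higher and 1 was lower, where 10.8% and 8.41% of all genes were. The gene lower after thinning was Itgal, with a log2 ratio of -1.91, against -0.97 with the mean over cells. The log2 ratio of Itga4 was -0.95 with the mean over cells and -0.86 after thinning. In WT R1 macrophages the B cell list stood at 4668 CPM, the T cell list at 594 CPM, and the neutrophil list at 1744 CPM, against 289, 20.6, and 132 CPM in Vsir-/- mice. The defining B cell transcript Ms4a1 was at 0 in Vsir-/- R1 macrophages. In lymphocyte-poor R1 cells, which had no T cell transcript, no NK cell list UMI, and at most 2 B cell list UMIs, Itga4 was at 94.0 CPM in 34 WT cells (interval 48.6 to 164) and 91.3 CPM in 128 Vsir-/- cells (interval 69.3 to 118). Leaving out only cells with a T cell transcript kept the difference, with 202 CPM in WT and 70.2 CPM in Vsir-/- mice. Among lymphocyte-poor cells, Itgal had 70.5 and 47.2 CPM with intervals that overlapped. Itgam had 2 and 40 UMIs (15.7 and 62.9 CPM), whose intervals also overlapped. Both genes kept the order of the whole cluster, and overlapping level intervals do not show equal levels. Itgb7 had 6 WT UMIs (47.0 CPM, interval 17.2 to 102) and 4 Vsir-/- UMIs (6.29 CPM, interval 1.72 to 16.1), which did not overlap. The Itga4 levels were thus alike in these few cells, and Itgb7 stayed lower in Vsir-/- mice on few UMIs. The part of lymphocyte transcripts in the differences of the whole cluster was not tested.

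**Figure D4:**
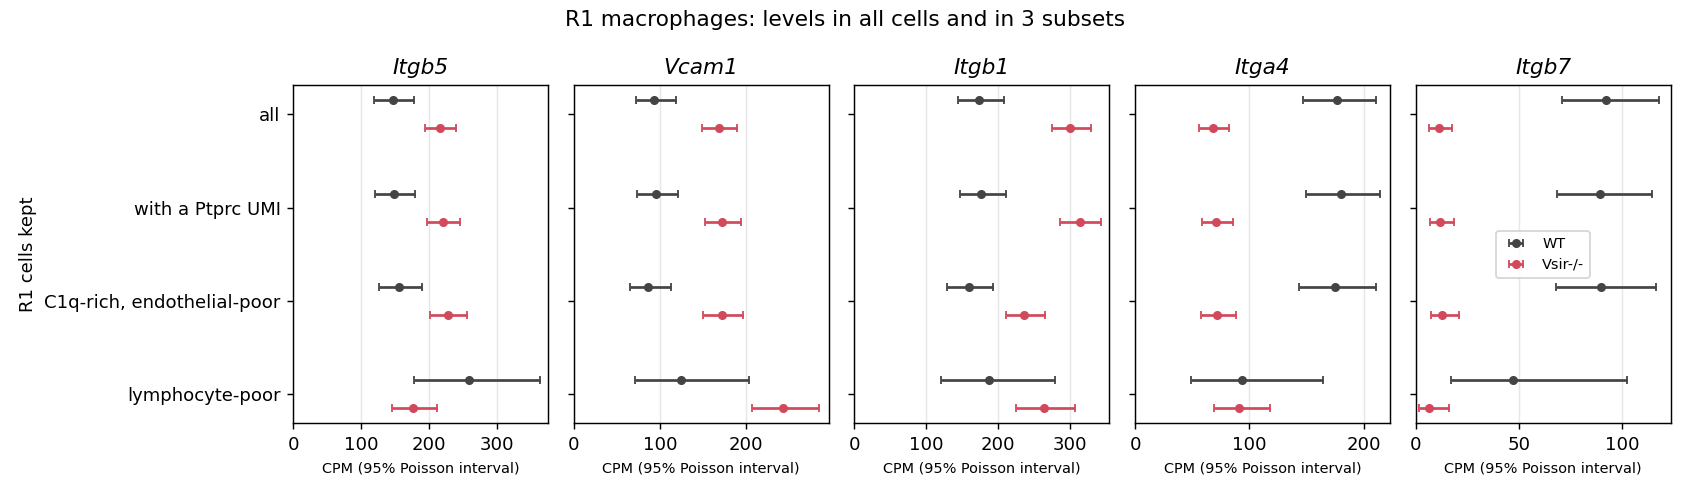
CPM of 5 genes (panels) in R1 macrophages of WT mice (gray) and Vsir-/- mice (red), for all cells, cells with a Ptprc UMI, cells with at least 10 C1q UMIs and at most 2 endothelial UMIs, and lymphocyte-poor cells; bars are 95% Poisson intervals. Vcam1 lies higher in Vsir-/- cells in each row, whereas Itga4 coincides at 94.0 and 91.3 CPM and Itgb5 changes sides in lymphocyte-poor cells.

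Vcam1 was higher in Vsir-/- mice in each of these subsets of R1 macrophages. It was at 125 CPM in lymphocyte-poor WT cells (interval 71.6 to 203) and 244 CPM in the Vsir-/- cells (interval 207 to 285). In cells with at least 10 C1q UMIs, which mark macrophages, and at most 2 endothelial UMIs, it was at 86.6 and 173 CPM, and Itgb1 was at 159 and 237 CPM. Itgb5 was at 156 and 227 CPM in that subset but at 258 CPM (interval 178 to 363) and 176 CPM (interval 145 to 212) in lymphocyte-poor cells, so the order of the genotypes for Itgb5 depended on the cells kept, with overlapping intervals in the latter. Endothelial transcripts were at 86.8 CPM in the endothelial-poor Vsir-/- subset and 1549 CPM in all Vsir-/- R1 macrophages, beside 237 and 301 CPM of Itgb1. They were at 1201 CPM in the lymphocyte-poor Vsir-/- cells and 54.8 CPM in the WT ones, and their part in the level of Vcam1 was not tested.

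The same restriction was applied to the R2 macrophages. In lymphocyte-poor M2-like R2 macrophages, Itgam had 274 CPM in 67 WT cells and 413 CPM in 104 Vsir-/- cells, and Itgb1 had 188 and 284 CPM. In lymphocyte-poor Other R2 macrophages, Itgb1 had 296 CPM in 64 WT cells and 450 CPM in 105 Vsir-/- cells. There Itgal was at 1188 CPM (interval 1052 to 1337) and 883 CPM (interval 810 to 962), a wider gap than in the whole cluster. Itga4 was at 1004 CPM in WT and 819 CPM in Vsir-/- mice, the reverse of its order in the whole cluster.

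Over all 13 clusters, 106 of the 130 pairs of gene and cluster were compared. In Vsir-/- mice 14 pairs (13.2%) were at least 2-fold higher, where 17.7% of all pairs over all genes were, and 19 pairs (17.9%) were at least 2-fold lower, where 9.38% were. Much of this lay in the mixed clusters. The non–EM-like CD4+ T cell cluster held 4 of the higher pairs (Itgam, Itgb1, Itgb5, and Vcam1) and 4 of the lower ones (Itgal, Itgb2, Itga4, and Itgb7), with 47.8% and 10.7% of all genes higher and lower there, and the proliferating cells held 2 of the higher (Itgb5 and Vcam1) and 6 of the lower (Itgal, Itgam, Itgax, Itgb2, Itga4, and Itgb7), with 37.5% and 9%. The median log2 ratio of all genes was 0.91 and 0.51 in these clusters and within 0.07 of 0 in the others. In the other 11 clusters, 8 of 87 pairs were higher and 9 were lower, where 10.4% and 9.25% of all pairs were. B cells, whose Vsir-/- cells also carried many tubule transcripts, held 4 of these higher pairs. Without B cells as well, 4 of 79 pairs were higher and 9 were lower, where 9.71% and 8.46% of all pairs were.

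**Figure D5:**
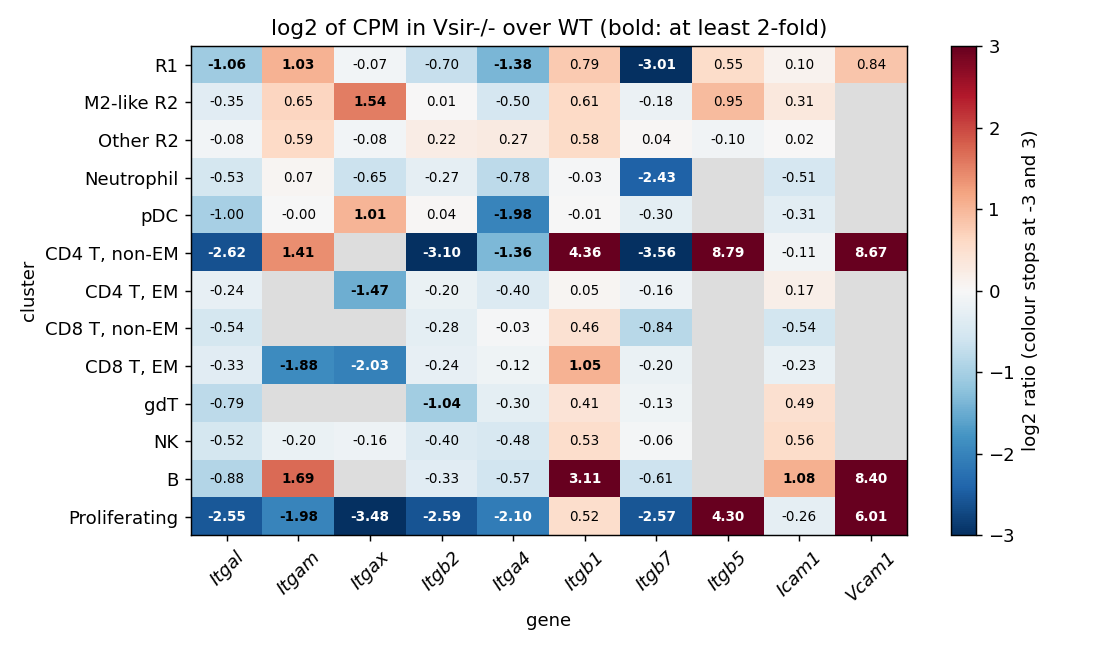
log2 ratio of CPM in Vsir-/- over WT mice for the 10 genes (columns) in the 13 clusters (rows), with 0.5 UMIs added; red is higher and blue lower in Vsir-/- mice, bold values are at least 2-fold, and gray cells had under 20 UMIs. Itgal is negative in every row, Itgb1 is positive in 11 rows, and the highest values are those of Itgb5 and Vcam1 in the non–EM-like CD4+ row and of Vcam1 in the B cell row; values against 0 WT UMIs are not bounds.

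The remaining calls were few in each cluster. In M2-like R2 macrophages, Itgax was higher and none was lower, where 8.11% and 7.61% of all genes were, and in Other R2 macrophages (6.71% higher and 9.52% lower), NK cells (9.86% and 7.01%), and non–EM-like CD8+ T cells (11.1% and 9.66%) no gene of the set reached 2-fold. None was higher and Itgb7 was lower in neutrophils (9.99% and 10.6%), and Itgax was higher and Itga4 lower in the pDC cluster (11.9% and 10.1%). With none higher, Itgax was lower in the EM-like CD4+ cluster (10.4% and 5.41%) and Itgb2 in γδ T cells (5.98% and 6.6%). EM-like CD8+ T cells had Itgb1 higher (6.03%) and Itgam and Itgax lower (9.98%). In B cells, Itgam, Itgb1, Icam1, and Vcam1 were higher (16.3%) and none was lower (15.9%). A Ptprc UMI was found in 86.1% of WT and 56.8% of Vsir-/- B cells. With only those cells, 2 of 7 genes compared were higher and none was lower (15% and 17.1% of all genes). With at most 5% mitochondrial counts, 2 of 6 were higher and none was lower (11.2% and 22.1%). The median log2 ratios were -0.39 and -0.37 in place of 0.37 over 8 genes, so these medians were not over the same genes.

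Cells without leukocyte transcripts carried the set differently. In the non–EM-like CD4+ T cell cluster of Vsir-/- mice, 217 of 349 cells had neither a T cell transcript nor a Ptprc UMI, and tubule transcripts summed to 30141 CPM in them. These cells had 504 CPM of Itgb1, 46.3 CPM of Vcam1, and 53.4 CPM of Itgb5, and only 3 UMIs of Itgb2. When such cells of this cluster and the proliferating cluster were divided by their leading list, the 254 cells with more tubule transcripts had 314 CPM of Itgb1 and 4.15 CPM of Itga4, and the 68 cells with more endothelial transcripts had 1072 CPM of Itgb1, 113 CPM of Itga4, and 84.8 CPM of Icam1. Vcam1 was at 118 and 116 CPM in them.

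Conversely, in proliferating cells with at least 10 T cell UMIs and a Ptprc UMI, 92 in WT and 41 in Vsir-/- mice, most differences were small. Itgal had 222 and 193 CPM, Itgb2 294 and 270 CPM, Itgb1 438 and 465 CPM, and Itgb7 309 and 320 CPM. Itga4 had 334 and 213 CPM and Itgax 44.5 and 9.75 CPM. Vcam1 was at 2.44 and 1.63 CPM, so its 144 CPM in the whole Vsir-/- cluster lay outside these T cells. The same restriction in non–EM-like CD4+ T cells left 77 Vsir-/- cells with 214 CPM of Itga4 (178 CPM in WT mice) and 109 CPM of Itgb7 (226 CPM in WT mice), and with tubule and endothelial lists still at 5649 and 3506 CPM. Itgb1 remained at 487 CPM there, against 24.6 CPM in WT mice.

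Other adhesion genes were counted by lists. Over the 13 clusters, the 19 other integrin subunits were at least 2-fold higher in 35 and lower in 10 of 80 pairs. Of all pairs over all genes there, 17.7% were higher and 9.38% lower. Without the mixed clusters, these subunits were higher in 11 and lower in 8 of 53 pairs. The 16 other integrin ligands were higher in 22 and lower in 7 of 52 pairs outside those clusters, whereas 25 genes of inside-out activation and adaptors were higher in 6 and lower in 17 of 221 pairs, and 23 genes of outside-in signaling and focal adhesion in 8 and 17 of 181 pairs. These 11 clusters had 10.4% of all pairs higher and 9.25% lower. The 12 selectins and selectin ligands were higher in 15 and lower in 10 of 75 pairs there. The tubule list without Lcn2 and Spp1 was higher in Vsir-/- mice in each of these 11 clusters, for example at 320 CPM in WT and 3859 CPM in Vsir-/- NK cells. The part of tubule and endothelial transcripts in these list counts was not tested.

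Among the ligands, Spp1, which encodes osteopontin and binds αv, α4, and α9 integrins, had 5.76 CPM in WT and 539 CPM in Vsir-/- R1 macrophages, and in the EM-like CD4+ cluster it had 4.28 and 849 CPM. The gene is also made by tubule cells and is on the tubule list. Without Lcn2 and Spp1, that list stood at 111 CPM in WT and 2867 CPM in Vsir-/- R1 macrophages. In the EM-like CD4+ cluster it stood at 200 and 4048 CPM. The part of tubule transcripts in the Spp1 level was not tested. Fn1, which encodes fibronectin, was at 499 CPM in WT and 1466 CPM in Vsir-/- M2-like R2 macrophages. Itga1, the collagen-binding α1 subunit, had 188 CPM in the WT EM-like CD8+ cluster and 72.3 CPM (12 UMIs) in its Vsir-/- cells, and Skap1, an adaptor of integrin activation after T cell receptor signals, had 289 and 142 CPM in NK cells. Rassf5, a partner of Rap1 in LFA-1 activation, had 74.1 and 19.1 CPM in B cells (10 Vsir-/- UMIs).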

How the data were processed

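The authors deposited UMI counts per gene and cell with a table naming the library and cluster of each of 7314 cells. The submitters' processing notes list Cell Ranger 3.1.0, R 4.0.3, Seurat 3.2.3, and build mm9. The deposited cells had at least 501 UMIs and at most 10% mitochondrial counts, a percentage the authors gave per cell. No doublet caller was run here.

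Counts were summed by cluster and genotype and divided by all UMIs of the same cells (Python 3.11.15, numpy 2.4.6, scipy 1.17.1, pandas 2.3.3, matplotlib 3.10.9). Intervals were exact Poisson, conditional binomial, or Clopper-Pearson at 95%. Ratios were called at 2-fold with 0.5 UMIs added and at least 20 UMIs. A count of 0 was bounded by 3 counts. Thinning used 1000 UMIs per cell with shallower cells left out (seed 1). The calculation was also run on simulated counts of R1 macrophages and B cells. These held 4-fold changes in genes of at least 100 expected UMIs, with counting error only. The rule recovered 100% and 98.5% of those genes, and 95.5% and 96.5% of intervals held the true ratio. The simulation had no spread between cells or mice and no changes near 2-fold, so it does not bear on such calls.

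The 10 genes and all lists were chosen with earlier results of these data known. All 10 were named in every cluster. Other adhesion genes were named by the largest and smallest ratios past 2-fold in clusters of at least 100 cells in a library, from at least 100 UMIs with at least 4 in each library. The 3 most similar genes were taken by Pearson correlation. Sequences were from RefSeq, with 7 of 10 genes matched.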

Additional observations from a re-analysis of the deposited data

Results flagged for a closer look

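Itgam was higher in the Vsir-/- library in B cells, with a log2 ratio of 1.69 on 17 WT and 8 Vsir-/- UMIs, and lower in proliferating cells, with a log2 ratio of -1.98. Itgax was higher in M2-like R2 macrophages, with a log2 ratio of 1.54, and lower in proliferating cells, with a log2 ratio of -3.48. These values stand out because the same gene was past 2-fold in opposite directions in different clusters. Both lower values lay in the mixed proliferating cluster, where 98.3% of WT and 37.0% of Vsir-/- cells had a Ptprc UMI. The part of this mix was not tested. In M2-like R2 macrophages, 1 Vsir-/- cell held 18 of the 59 Itgax UMIs, and the mean over cells gave a log2 ratio of -0.13. With 1 library per genotype, the difference between clusters was not tested.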

How the results depend on the processing

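No paired analysis was possible because each genotype had 1 library, and no library could be left out for the same reason. Of 106 pairs compared, 14 were at least 2-fold higher in Vsir-/- mice and 19 lower, where 17.7% and 9.38% of all pairs over all genes were. Thinning to 1000 UMIs per cell left 4 higher and 11 lower of 82 pairs, where 13.2% and 11.4% of all pairs over all genes were. At that depth, 8 of the higher and 6 of the lower calls could not be compared. Requiring 1 UMI gave 32 higher of 127 pairs, where 30.2% of all pairs over all genes were. Keeping only cells with at most 0.5% of their UMIs from the endothelial and tubule lists was chosen after the data were seen. It gave 11 higher and 12 lower of 102 pairs, where 8.29% and 9.89% of all pairs over all genes were. Under the other settings the counts were 11 to 14 higher and 15 to 21 lower, where 14% to 18.4% and 7.67% to 12.4% of all pairs over all genes were. The log2 ratio reversed to -0.13 for Itgax in M2-like R2 macrophages with the mean over cells and to 0.38 for Itga4 (non–EM-like CD4+) with endothelial-poor and tubule-poor cells, and the cause was not tested. These were not the only signs that turned, as given above for Itga4, Itgb1, Itgb7, and Icam1 in other clusters.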
